A study of Mus musculus with 76 samples.

Results

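The clustered protocadherins are cadherin-like adhesion molecules of neurons that are encoded by 3 neighbouring gene clusters, alpha, beta and gamma. Each gene has its own promoter and its own large first exon, called the variable exon, which encodes the extracellular part, the membrane span and the start of the cytoplasmic part. In the alpha and gamma clusters this exon is spliced to short constant exons that all genes of the cluster share, whereas each beta gene is a single exon. A neuron is known to choose a few of these promoters more or less at random, which gives it a surface code for telling itself from other neurons, and the choice involves CTCF and cohesin, which bring promoters into contact with enhancers between the alpha and beta clusters and downstream of the gamma cluster. The last genes of the alpha and gamma clusters, the C-types (Pcdhac1, Pcdhac2, Pcdhgc3, Pcdhgc4 and Pcdhgc5), are known to escape the random choice in part and to be used by many neurons.

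The 58 genes whose symbols fit the pattern of the 3 clusters were taken from the 56923 genes in the count files. All 58 lie on the plus strand of chromosome 18. In mm39, the 14 alpha genes (12 Pcdha genes, Pcdhac1 and Pcdhac2) run from 37063237 to 37320716, the 22 beta genes from 37397991 to 37657532, and the 22 gamma genes (12 Pcdhga, 7 Pcdhgb and 3 Pcdhgc) from 37794846 to 37975014. The pattern uses no measured value, though it was chosen with earlier results of these data known.

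The study compared the diencephalon, the forebrain region of the thalamus, habenula and hypothalamus, of C57BL/6J wild type embryos with that of embryos homozygous for hs754-humanized, a line in which a human enhancer sequence replaced its mouse counterpart on chromosome 13. Tissue was taken at E11.5 and at E17.5. A replicate is a pool from a single litter, of 6 embryos at the earlier and 3 at the later stage, so that pool size and stage cannot be told apart. PolyA-selected RNA was sequenced in 4 replicates per genotype and stage (16 samples), and chromatin was immunoprecipitated for H3K4me3 (a mark of active and poised promoters), H3K27ac (active promoters and enhancers) and H3K27me3 (Polycomb repression) in 2 (E11.5) or 3 (E17.5) replicates of each genotype, and for CTCF in 3 replicates of each genotype at the later stage alone (36 peak lists).

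A read that overlaps exons of more than 1 gene was not counted by the authors' counter, so the shared constant exons are not in these counts, and a count of an alpha or gamma gene comes from its variable exon. Antisense RNAs remove further bases from the count without strand, which was used here. Pcdha4 kept 3 countable bases, Pcdha11 kept 54 and Pcdhga10 kept 0, so these 3 genes can hardly be measured in it. By strand, Pcdha11 kept 2500 and Pcdhga10 kept 2634. Pcdha4 kept only 93 by strand, since Pcdha4b overlaps it on the same strand. Total gene counts were 16414369 to 24272569 per sample, and the 58 genes together took 3062 to 4887 of them at E11.5 and 10168 to 16460 at E17.5. Levels are given as CPM, the normalised read count scaled to the TMM-corrected total of gene counts, and as CPM per kb of countable exon where genes are compared. The level per kb is given only for genes with at least 500 countable bases, which leaves out these 3 genes.

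Replicate 1 of wild type E17.5 stood apart from the other 3 of its group for the gamma genes. Its summed level was 251 CPM for the Pcdhga genes against 115 to 144 CPM in the others, 145 against 59.6 to 78.6 CPM for the Pcdhgb genes, and 191 against 80.6 to 90.3 CPM for the 3 Pcdhgc genes. It also had the lowest summed level of its group for the Pcdha genes (53.6 CPM) and the Pcdhb genes (198 CPM). Among the 16 samples it had the lowest share of reads not assigned to a gene (48.1%, mostly unmapped reads, which were 38.4%). Its share of ambiguous reads was the highest (2.87%). Results that rest on this sample are given with and without it.

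The RNA of the clusters was higher at E17.5 than at E11.5, and most so for the alpha and beta genes. In wild type the summed level of the Pcdha genes was 15.2 times higher at E17.5 (16.5 times without replicate 1), that of the Pcdhb genes 8.21 times (8.75), that of the Pcdhga genes 2.15 times (1.72) and that of the Pcdhgb genes 1.66 times (1.28). The humanized samples, which share no library with the wild type ones, gave 22, 11.3, 1.93 and 1.54 times. The plot of summed levels by sample shows this spread.

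**Figure D1:**
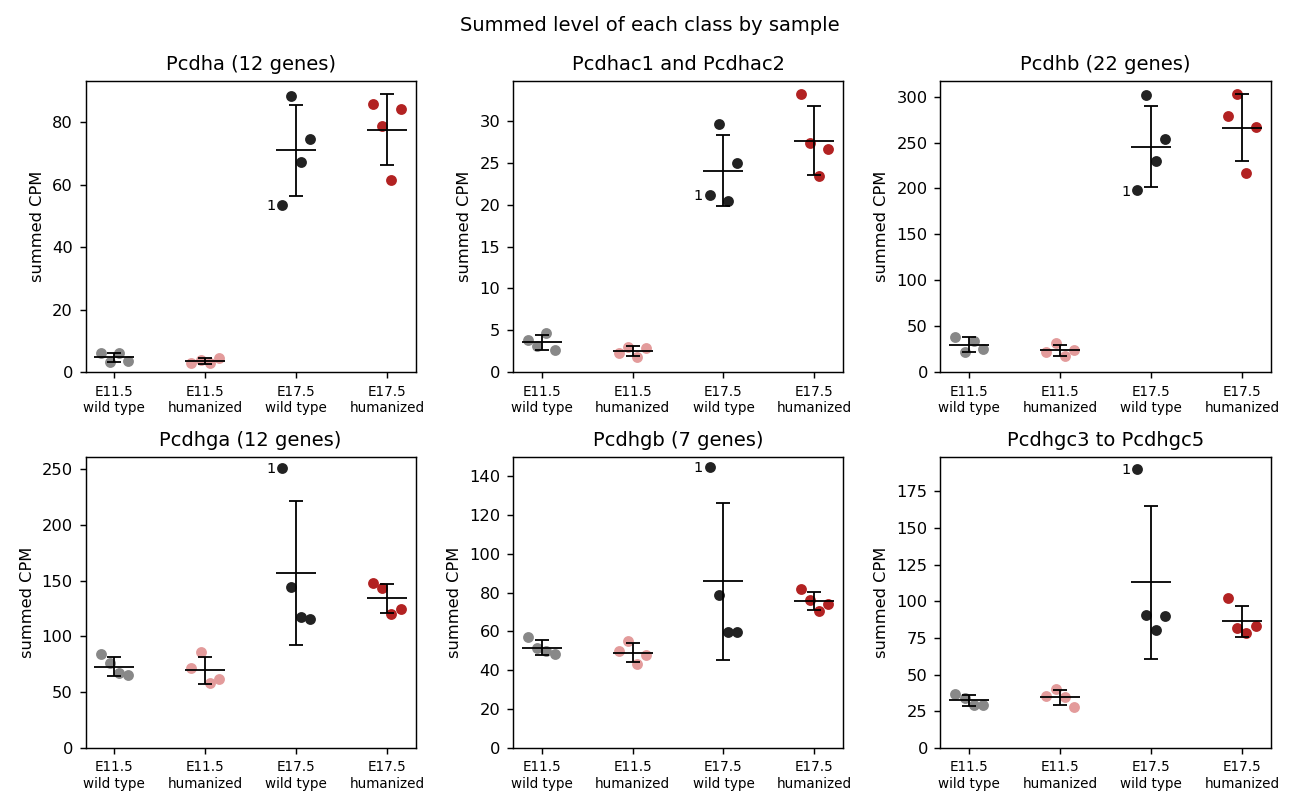
Summed RNA level (CPM, vertical axis from 0) of each class of clustered protocadherins in every sample, by stage and genotype; points are samples, horizontal lines the mean and bars 1 SD (n = 4), and "1" marks wild type E17.5 replicate 1. The Pcdha and Pcdhb sums of all E17.5 samples lie above all E11.5 samples, and replicate 1 is far above its group for the 3 gamma classes.

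By gene, 53 of the 58 passed the filter on low counts in the wild type stage comparison, and 46 of the 53 were called higher at E17.5 (edgeR's quasi-likelihood test, adjusted p under 0.05), against 29.0% of the 18583 genes tested. None was called lower (background 26.7%). The median log2 fold change was 2.56, beside -0.01 over all genes tested. In 44 of the 53, the lowest E17.5 sample was above the highest E11.5 sample, against 25.2% of all genes tested. In the humanized samples 50 of 53 were called higher and 0 lower (background 38.2% and 39.5%), with a median of 2.66, and 47 did not overlap between stages (background 35.1%). At E11.5 alone 44 of the 58 genes passed the filter, so that some of the 53 passed through their E17.5 counts, which makes these counts a description. Without replicate 1, the wild type count stayed at 46.

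Of the 9 Pcdha genes tested, 9 rose in both genotypes, with median log2 fold changes of 4.00 in wild type and 4.60 in humanized samples. Pcdha5, which had the highest level per kb of the Pcdha genes over the 16 samples (2.64 CPM per kb), had 0.307, 0.212, 0.455 and 0.364 CPM in the wild type E11.5 samples and 7.99, 14.7, 9.79 and 11.7 CPM at E17.5. Every E17.5 sample was thus far above every E11.5 sample, a log2 fold change of 5.0 ± 0.32 (SE, adjusted p = 9.52e-07) in wild type and 4.72 ± 0.29 in humanized samples. Pcdha1, the first gene of the cluster, was near the limit of detection at E11.5, with 0, 0, 2 and 0 counts in wild type against 35, 63, 42 and 58 at E17.5. Scaled by depth, that is a ratio of 92.0 with a 95% counting interval of 25.1 to 765. In the humanized samples, Pcdha1 had 0, 5, 0 and 0 counts at E11.5, then 37, 38, 26 and 30 at E17.5, a ratio of 30.7 (12.8 to 96.2). These intervals cover counting error only. Pcdha10 had the smallest rise of the class in wild type (3.04 ± 0.54, adjusted p = 0.00077), and its E11.5 samples spread widely, with 0.307, 0.212, 0.96 and 0.081 CPM. Pcdha8 was the least abundant at 0.128 CPM per kb and failed the filter, with 2, 0, 2 and 0 counts in wild type at E11.5, then 14, 12, 10 and 14 at E17.5.

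All 21 Pcdhb genes tested rose in both genotypes, by a median log2 fold change of 3.04 in wild type and 3.64 in humanized samples. The largest was that of Pcdhb13, with 0.205, 0.106, 0.303 and 0.162 CPM in wild type at E11.5 and 4.75, 3.96, 3.73 and 3.16 CPM at E17.5 (4.28 ± 0.35, adjusted p = 3.68e-06). Pcdhb14 followed at 4.11 ± 0.26. The smallest was that of Pcdhb8, at 2.17 ± 0.29 (adjusted p = 0.00011), with 2.66, 1.8, 1.57 and 0.931 CPM at E11.5 and 7.47, 8.36, 7.85 and 7.79 CPM at E17.5. Its groups did not overlap either. Pcdhb20 had the highest level per kb of the class (3.40 CPM per kb over the 16 samples). Pcdhb1, which lies apart at the start of the cluster, was at 0 counts in all 8 samples of E11.5. It had 0, 3, 0 and 7 counts in wild type and 0, 1, 0 and 0 in humanized samples at E17.5, too few for a test.

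**Figure D2:**
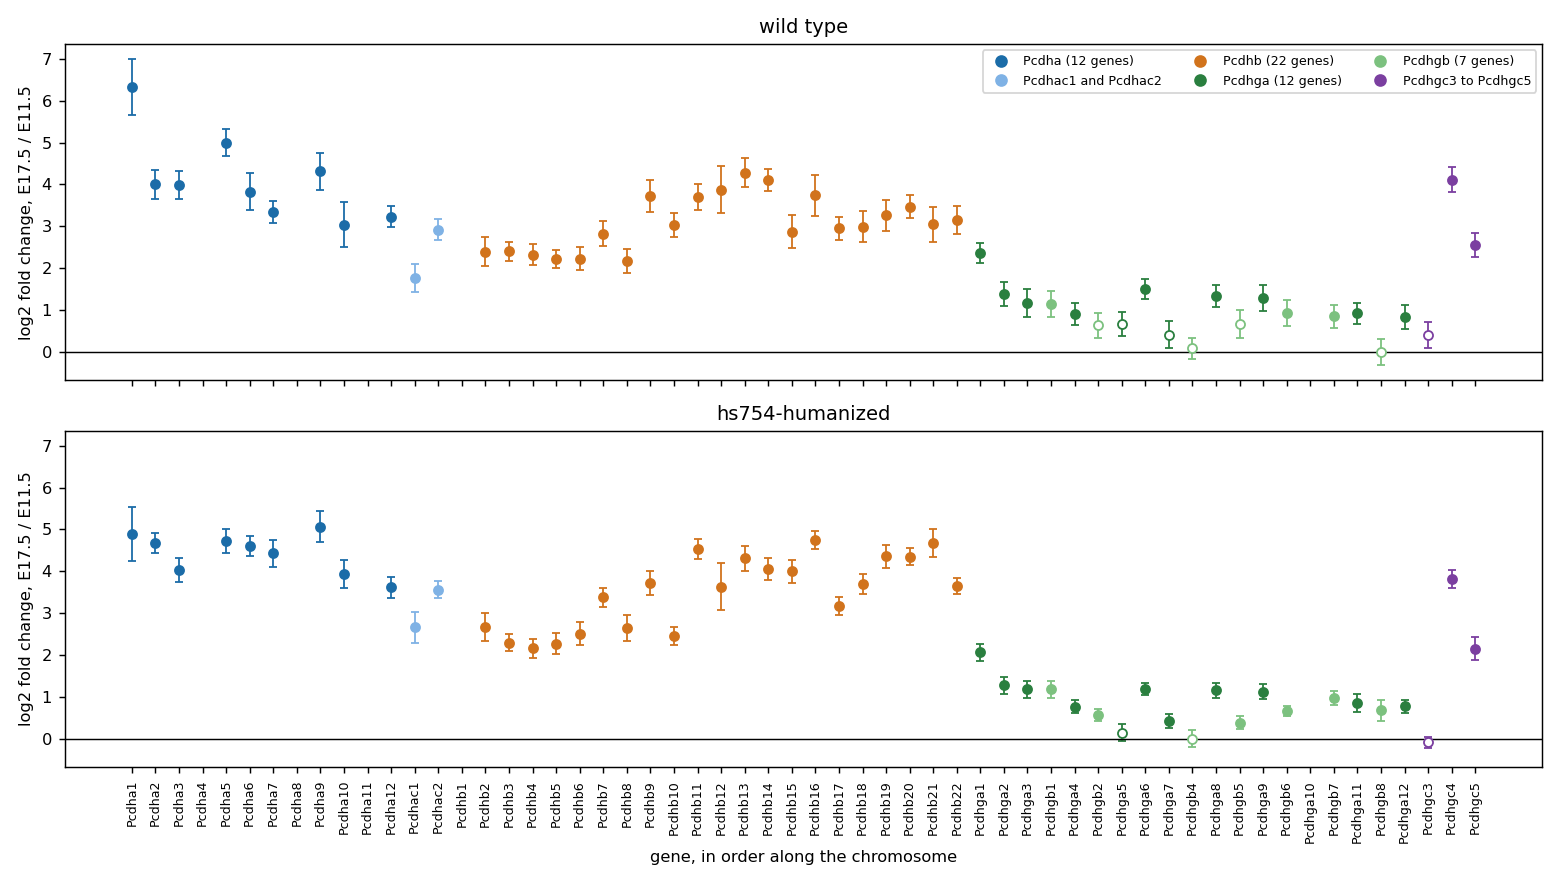
Log2 fold change of RNA between E17.5 and E11.5 (vertical axis) for each clustered protocadherin in order along the chromosome, in wild type (top) and hs754-humanized samples (bottom); points are edgeR estimates with SE bars (n = 4 against 4), filled where the adjusted p is under 0.05, and a gap marks a gene that was not tested. The Pcdha and Pcdhb genes lie above 2 in wild type, most gamma A and gamma B genes lie between 0 and 1.5, and Pcdhgc4 stands out at the end of the gamma cluster.

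The Pcdhga and Pcdhgb genes changed less. In wild type, 9 of 11 Pcdhga genes rose (median 1.17) and 3 of 7 Pcdhgb genes (median 0.67; 2 without replicate 1, 2 or 3 of E11.5, 1 without its replicate 4, and 5 with all 16 samples in the fit), and in humanized samples 10 of 11 (median 1.12) and 6 of 7 (median 0.65). Without replicate 1 the wild type counts were again 9 and 3, but the medians fell to 0.70 and 0.19. Pcdhga1, the first gene of the gamma cluster, had the largest rise of both classes, from 2.05, 1.59, 1.67 and 1.42 CPM to 11.3, 8.9, 7.05 and 7.7 CPM (2.37 ± 0.24, adjusted p = 1.49e-05), and it remained at 2.21 without replicate 1. Pcdhga6 rose by 1.5 ± 0.24, and Pcdhga3, the Pcdhga gene with the highest level per kb (6.31 CPM per kb), by 1.17 ± 0.33, or 0.70 without replicate 1. Pcdhga7 had 9.22, 8.53, 7.98 and 7.25 CPM at E11.5 and 19.9, 9.77, 7.25 and 7.2 CPM at E17.5. Its 0.41 ± 0.32 did not pass the test (adjusted p = 0.30) and was -0.053 without replicate 1.

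Among the Pcdhgb genes, Pcdhgb6 had the highest level per kb (10.5 CPM per kb), with 22, 18.1, 17 and 15.8 CPM at E11.5 and 62.1, 30.7, 22.4 and 24.1 CPM at E17.5 in wild type. It rose by 0.93 ± 0.32 (adjusted p = 0.028), or by 0.48 without replicate 1, and the call was lost without replicate 2, 3 or 4 of E11.5. Pcdhgb1 rose by 1.14 ± 0.32 (0.77 without replicate 1). For Pcdhgb4, 0.08 ± 0.25 was measured in wild type (adjusted p = 0.79) and 0.00 ± 0.19 in humanized samples, with overlapping groups in both. Pcdhgb8, the gene with the lowest level per kb of the class, had 3.43, 2.54, 4.45 and 4.74 CPM at E11.5 and 3.08, 5.97, 3.53 and 2.69 CPM at E17.5, a difference of -0.01 ± 0.31. In humanized samples it was 0.68 (adjusted p = 0.030) with overlapping groups. Counted by strand, the difference of Pcdhgb8 was -0.65 in wild type (adjusted p = 0.097) and -0.075 in humanized samples (adjusted p = 0.85).

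The 5 C-type genes did not move as a unit. Pcdhgc4 had 4.25, 3.81, 3.59 and 4.41 CPM in wild type at E11.5 and 115, 55.6, 51.1 and 58.8 CPM at E17.5. Its mean went from 4.02 ± 0.38 CPM (SD, n = 4) to 70.0 ± 29.8 CPM, and it rose by 4.11 ± 0.30 on the log2 scale (17.3-fold, adjusted p = 1.96e-06). The rise was 3.75 without replicate 1 and 3.81 ± 0.22 in humanized samples. Pcdhgc3, its neighbour, had 31.3, 29.4, 24.8 and 24.1 CPM at E11.5 and 66.6, 28.5, 24.7 and 25.8 CPM at E17.5, so that only replicate 1 lay above the E11.5 range. Its difference of 0.40 ± 0.31 did not pass the test (adjusted p = 0.30), was -0.077 without replicate 1 and was -0.09 ± 0.13 in humanized samples. Per kb of countable exon, Pcdhgc3 had the highest level of the members with at least 500 countable bases over the 16 samples, at 28.7 CPM per kb beside 10.1 for Pcdhgc4. An antisense gene, BC037039, removes part of the exon of Pcdhgc3 from the count, and 1055 of 2615 bases remain. Counted by strand, Pcdhgc3 also failed the test, at 0.39 in wild type (adjusted p = 0.33).

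The third gamma C-type, Pcdhgc5, had 1.38, 0.901, 1.11 and 0.931 CPM at E11.5 and 9.4, 6.19, 4.82 and 5.35 CPM at E17.5, a rise of 2.56 ± 0.29 (adjusted p = 3.48e-05; 2.31 without replicate 1). Of the alpha C-types, Pcdhac2 went from 2.97, 2.33, 3.84 and 2.23 CPM to 19.4, 26.9, 17.7 and 22.6 CPM (2.92 ± 0.25, adjusted p = 5.20e-06). Pcdhac1 was low at both stages, with 0.871, 0.795, 0.859 and 0.364 CPM at E11.5 and 1.78, 2.82, 2.73 and 2.44 CPM at E17.5, and rose by 1.75 ± 0.33 (adjusted p = 0.0012). Each of these 3 genes rose in the humanized samples too, by 2.15, 3.56 and 2.66. For all 4 of the C-types that rose, no E17.5 sample overlapped the E11.5 samples.

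Since the classes rose by different amounts, the make-up of the clustered protocadherin RNA changed. The Pcdhga and Pcdhgb genes held 61.0% to 67.2% of the summed CPM of the 58 genes in the wild type E11.5 samples and 28.3% to 46.1% at E17.5, the highest value being that of replicate 1. In the humanized samples they held 64.1% to 66.3% and then 30.1% to 33.4%. The Pcdha and Pcdhb genes went from 13.1% to 21.1% up to 29.2% to 53.2% in wild type (51.7% to 53.2% without replicate 1), and from 12.8% to 16.8% up to 48.8% to 53.8% in humanized samples. The C-types took 17.9% to 19.7% at E11.5 and 16.4% to 24.6% at E17.5 in wild type (16.4% to 18.6% without replicate 1). These shares are of counted variable exons, and Pcdha4, Pcdha11 and Pcdhga10 are all but missing from them. The C-type share depends on the column, since Pcdhgc3 loses part of its exon without strand. The 3 Pcdhgc genes held 15.4% to 18% at E11.5 and 12.3% to 22.2% at E17.5 in wild type without strand, but 25.9% to 31.4% and then 15.9% to 27.4% by strand, and in humanized samples by strand 26.8% to 34.8% and then 15.2% to 18.5%, lower at E17.5 in every sample. The highest wild type value at E17.5 was that of replicate 1 in both columns. By strand, 2 of these genes had a signal: Pcdha11 went from 1, 0.566, 0.974 and 0.765 CPM to 7.19, 7.73, 6.81 and 7.83 CPM in wild type (log2 fold change 3.17), and Pcdhga10 from 10.6, 9.77, 7.74 and 8.22 CPM to 35.7, 16.7, 13.1 and 16.2 CPM (1.18), each within the range of its class. The heat map of all members shows both the steps between stages and the genes that cannot be counted.

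**Figure D3:**
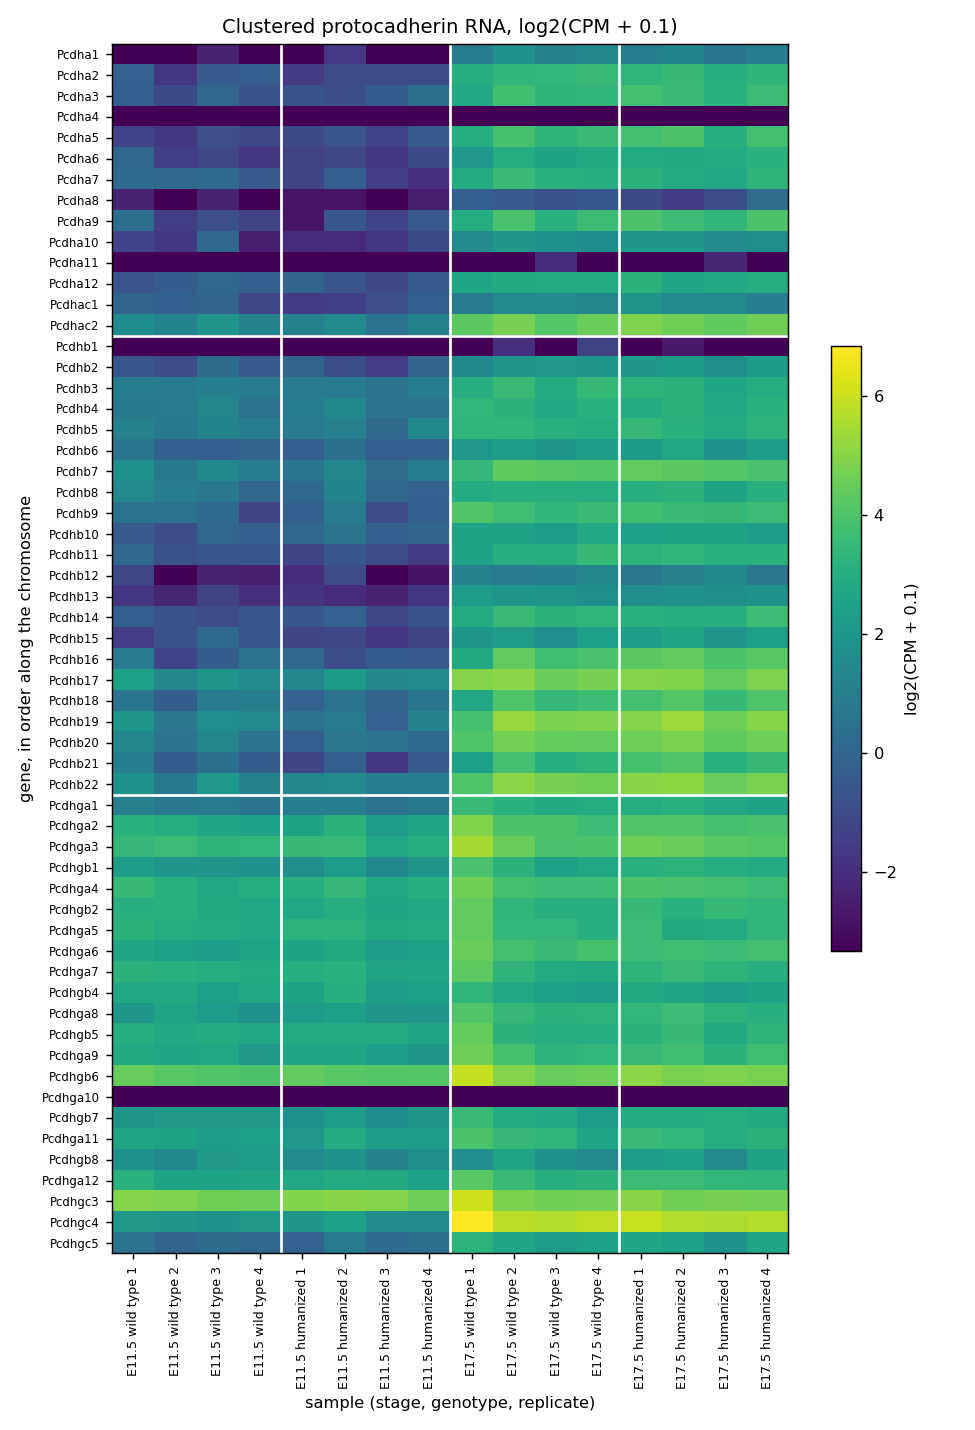
RNA level of the 58 clustered protocadherins (rows, in chromosome order; white lines part the alpha, beta and gamma clusters) in the 16 samples (columns), as log2(CPM + 0.1) from dark (low) to light (high). Most alpha and beta rows change from dark at E11.5 to lighter at E17.5, Pcdhb1 stays dark in most samples, Pcdhgc3 is light at both stages, and Pcdha4 and Pcdhga10 are at 0 throughout because almost none of their exons can be counted.

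The marks at the promoters also differed by class, though not all in the same way as the RNA. A peak was assigned to a gene when it reached within 2 kb of the gene start, and a gene was counted when every wild type list of the mark and stage had such a peak. H3K4me3 was present at 18 of the 58 starts at E11.5 (background of protein-coding gene starts 61.7%) and at 40 at E17.5 (background 61.9%). At E11.5 these were 11 of 12 Pcdhga, 3 of 7 Pcdhgb, 2 of 3 Pcdhgc and both Pcdhac genes, and 0 of the 12 Pcdha and 22 Pcdhb genes. At E17.5 they were 12 Pcdhga, 5 Pcdhgb, 3 Pcdhgc and both Pcdhac genes, with 8 of 12 Pcdha and 10 of 22 Pcdhb genes besides. The Pcdha and Pcdhb promoters, leaving aside the Pcdhac genes, thus had no H3K4me3 peak in any wild type list at E11.5.

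Tested promoter by promoter over the 4 lists of E11.5 and the 6 of E17.5, both genotypes together, 33 of the 58 starts could be tested for H3K4me3, and 16 had a peak in more lists at E17.5 (two-sided Fisher's exact test, p = 0.0048, adjusted p = 0.019 for each, background 15.1%). None had one in fewer lists (background 9.46%). Both backgrounds are shares of the 761 protein-coding gene starts that could be tested. Most of the 33 had no peak in any E11.5 list. They could be tested only through their E17.5 peaks and could not come out in fewer lists, so these counts are a description. With 4 against 6 lists, 0.0048 is the smallest p that Fisher's exact test can give. Each of the 16 had a peak in 0 of 4 lists at E11.5 and in 6 of 6 at E17.5: 6 Pcdha genes, Pcdha5 among them, 8 Pcdhb genes, Pcdhb14, Pcdhb19, Pcdhb20 and Pcdhb21 among them, Pcdhgb7 and Pcdhgc5. The 8 Pcdhb genes are Pcdhb14 to Pcdhb22 without Pcdhb17, at the gamma side of the cluster. Pcdhb14 to Pcdhb16, Pcdhb18, Pcdhb22 and Pcdhgb7 are named here after their values were seen.

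**Figure D4:**
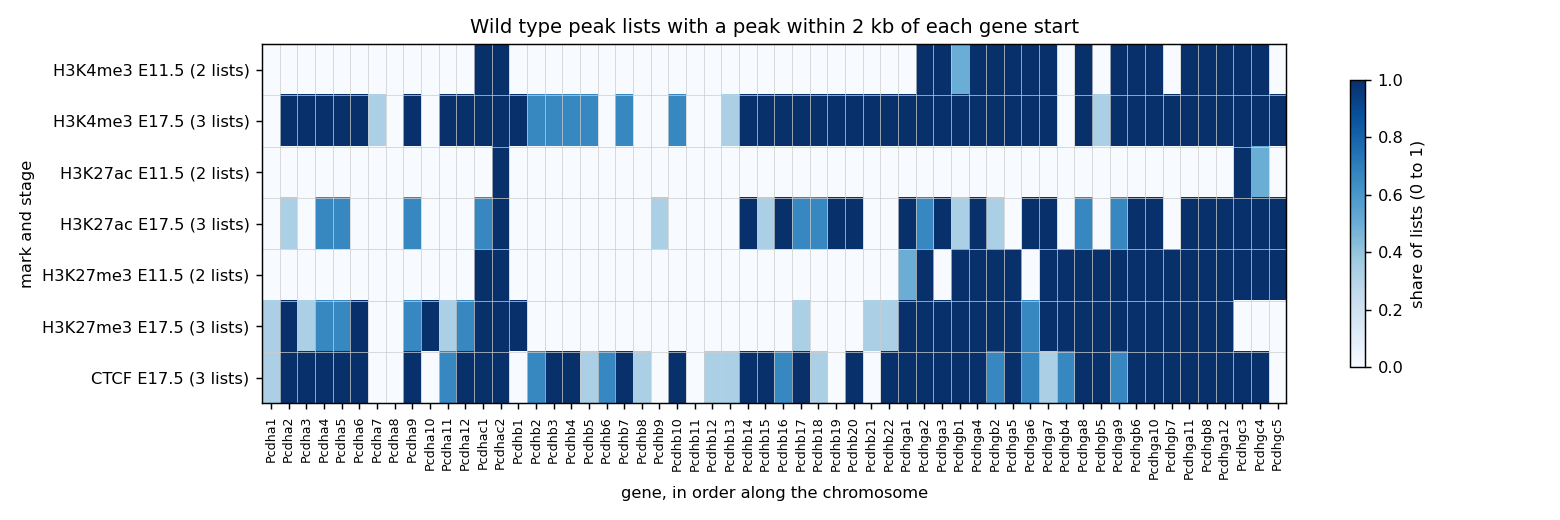
Share of wild type peak lists (0 to 1, light to dark) with a peak within 2 kb of the start of each clustered protocadherin (columns, in chromosome order), for each mark and stage (rows; 2 lists at E11.5, 3 at E17.5). Most gamma promoters carry H3K4me3 and H3K27me3 at both stages, Pcdhgc3 to Pcdhgc5 have no H3K27me3 at E17.5, and of the Pcdha and Pcdhb promoters, none with H3K4me3 at E11.5, 8 of 12 and 10 of 22 carry it in every list at E17.5.

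The H3K4me3 peaks were small. Over the genes with a peak in every wild type list at E17.5, the median fold enrichment over local background was 6.5, against 54.0 for all protein-coding gene starts. The C-types were the exception. At Pcdhac2, the fold was 31.7 and 28.5 at E11.5, then 64.3, 55.8 and 47.8 at E17.5 in wild type, and at Pcdhgc3 it was 42.4 and 45.5 and then 35.2, 47.6 and 31.6. Pcdhac1 had 15.3 and 19.8 and then 25.7, 28.6 and 17.8. At Pcdhgc4, the values were 28.6 and 29.0 and then 44.6, 42.4 and 53.0. Pcdhgc5 had no H3K4me3 peak at E11.5, and at E17.5 the same peak that covers the start of Pcdhgc4 reached its own start, with the same values. By contrast Pcdha5 had 8.20, 6.76 and 7.59 and Pcdhb20 had 9.57, 7.06 and 6.70 at E17.5, after no peak at E11.5.

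H3K27ac was rarer still. It was present in every wild type list at 2 of the 58 starts at E11.5 (background 46.1%), Pcdhac2 and Pcdhgc3, and at 18 at E17.5 (background 56.0%), which were 8 Pcdhga, 4 Pcdhb, 2 Pcdhgb, all 3 Pcdhgc genes and Pcdhac2, and no Pcdha gene. Among 32 starts tested between stages, 8 had a peak in more lists at E17.5 (0 of 4 against 6 of 6 lists, Fisher's exact test, adjusted p = 0.017), a share near the background of 25.4%, and 0 in fewer (background 2.56%). The 8 are therefore named as a description and are no result particular to the members. Of the 32 starts tested, only Pcdhgc4 had a peak in any E11.5 list, so the others could not come out in fewer. These 8 were Pcdhb19, Pcdhga1, Pcdhga4, Pcdhga6, Pcdhga7, Pcdhga11, Pcdhga12 and Pcdhgc5, of which Pcdhga4 is named after its values were seen. When all lists were shortened to equal length, 4 starts were called. At the C-types the fold was again higher than at the other genes at E17.5, with 26.8, 21.4 and 17.4 at Pcdhgc3, after 7.60 and 7.71 at E11.5, and 31.7, 26.6 and 28.8 at Pcdhgc4, after 2.90 in 1 list and no peak in the other. At Pcdhac2 it went from 2.96 and 3.19 to 28.8, 23.9 and 20.6, whereas Pcdhac1 had peaks in 2 of 3 lists at E17.5, of 4.67 and 4.47. The antibody lot used for H3K27ac is known from the study's methods to bind H2BK5ac too.

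H3K27me3 lay mainly on the gamma cluster. It was present in every wild type list at 21 of the 58 starts at E11.5 (background 20.4%): 9 Pcdhga, all 7 Pcdhgb, all 3 Pcdhgc and both Pcdhac genes, and 0 of the Pcdha and Pcdhb genes. H3K27me3 peaks covered 25.3% and 32.8% of the span of the gamma cluster in the 2 wild type lists at E11.5, 2.44% and 2.7% of the alpha cluster and 0% of the beta cluster. At E17.5 they covered 28.8% to 36.1% of the gamma, 2.38% to 9.87% of the alpha and 0.348% to 3.33% of the beta cluster in wild type. The highest value for each cluster at E17.5 was that of replicate 1, whose list was also the longest, with 43700 peaks against 27452 and 33223. At E17.5, 24 starts had a peak in every wild type list (background 21.9%): 11 Pcdhga, 7 Pcdhgb and both Pcdhac genes, with 3 Pcdha genes and Pcdhb1. Many of these peaks were weak, and with a -log10 q of at least 5 the counts were 9 at E11.5 and 4 at E17.5.

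The 3 gamma C-types lost the mark. Pcdhgc3, Pcdhgc4 and Pcdhgc5 each had an H3K27me3 peak in 4 of 4 lists at E11.5 and in 0 of 6 at E17.5 (Fisher's exact test, p = 0.0048, adjusted p = 0.034), and they were the only members called among 22 tested for this mark, with 0 called in more lists (background 5.86% fewer, 8.34% more). At E11.5 the wild type fold was 4.89 and 4.97 at Pcdhgc3 and 7.71 and 6.86 at Pcdhgc4, where the same peak reached Pcdhgc5. The call needs most of the lists. Without any 1 of the 4 lists of E11.5, or without wild type replicate 2 or 3 or humanized replicate 1 or 2 of E17.5, 0 members were called, and without humanized replicate 3 of E17.5 5 were. At E17.5, Pcdhac1 had a low fold of 2.71, 2.45 and 2.61 and Pcdhac2 of 2.71, 2.91 and 2.48, after 3.58 and 3.64 and 5.03 and 4.72 at E11.5. These weak peaks depend on list length: when all lists were shortened to equal length, each of the 2 genes had a peak in 4 of 4 lists at E11.5 and in 1 of 6 at E17.5, and the 3 gamma C-types in 4 of 4 and 0 of 6. Pcdhgb6 had 7.21 and 6.04 at E11.5, then 3.78, 3.46 and 3.70 at E17.5. New at E17.5 in all 3 wild type lists and with no peak at E11.5 were small peaks at Pcdha10 (2.81, 2.94 and 2.77) and Pcdhb1 (3.18, 3.01 and 2.64), and in the humanized lists both genes had them in 2 of 3.

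H3K4me3 and H3K27me3 were found together at 16 starts at E11.5 and 21 at E17.5 in wild type. No share of all protein-coding gene starts is given for the pair of marks, so these counts are a description. At E17.5 these were 11 Pcdhga, 5 Pcdhgb, both Pcdhac, 2 Pcdha genes and Pcdhb1. At E11.5 the pair of marks was present at 2 of the 3 gamma C-types, which carried H3K4me3 without H3K27me3 at E17.5. Bulk chromatin does not tell whether both marks were on the same allele or in different cells. Of the 3 gamma C-types, the RNA of Pcdhgc4 and Pcdhgc5 rose between the stages and that of Pcdhgc3 did not pass the test, as given above. Across the members with a usable exon length in wild type at E17.5, the median RNA level was 4.30 CPM per kb over 37 genes with H3K4me3 in every list and 1.86 CPM per kb over 9 genes with none, with ranges of 0.0442 to 34.5 and 0.249 to 3.48. Genes with CTCF in every list had a median of 4.48 CPM per kb (32 genes), those with CTCF in none 2.21 (9 genes). These medians are descriptive, since the classes differ in all of these values.

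CTCF was measured at E17.5 alone. A CTCF peak was within 2 kb of the start in all 3 wild type lists for 34 of the 58 genes (background 38.1%): 7 of 12 Pcdha, both Pcdhac, 9 of 22 Pcdhb, 9 of 12 Pcdhga, 5 of 7 Pcdhgb and 2 of 3 Pcdhgc genes. For 28 of the 34, the median summit lay within 200 bp of the gene start, with a median offset of -46.5 bp, just upstream. Pcdha4 and Pcdha6 had their median summits 603 and 600 bp downstream of the start, and sites in both the promoter and the variable exon are known for the alpha genes. No list of either genotype had a CTCF peak at Pcdhgc5, Pcdha8, Pcdhb1, Pcdhb9, Pcdhb11 or Pcdhb21. Pcdha7, Pcdha10 and Pcdhb19 had none in wild type and a peak in 1, 2 and 1 of the 3 humanized lists.

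**Figure D5:**
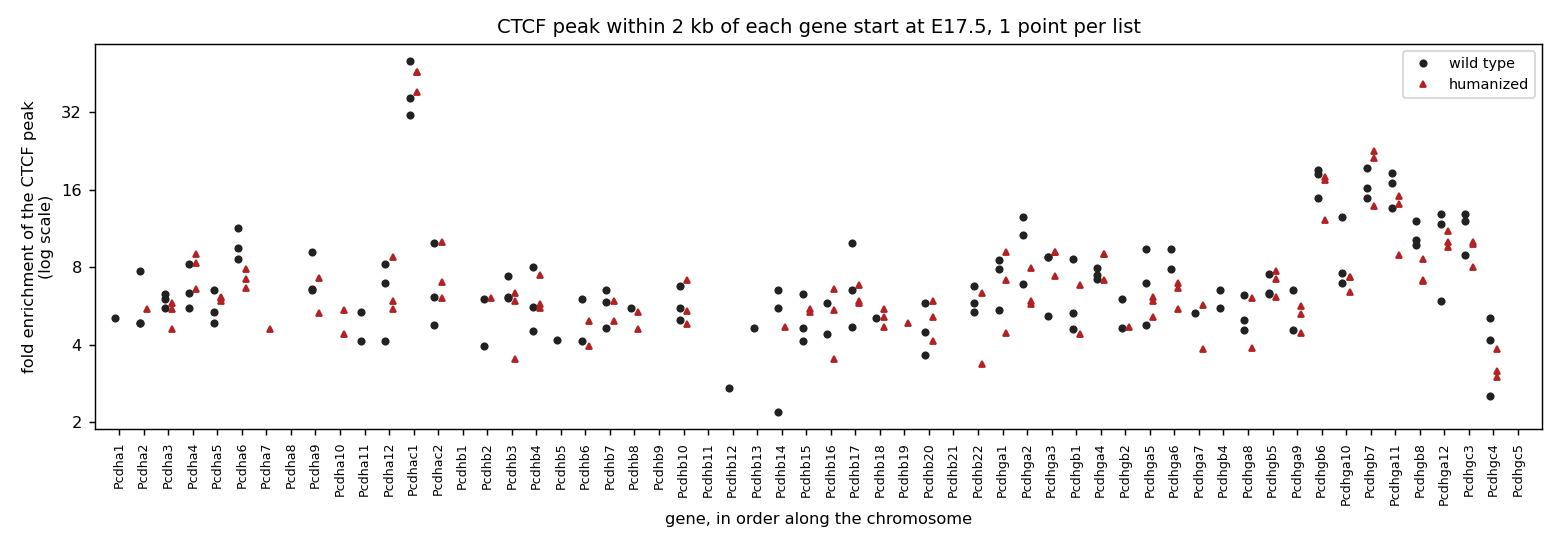
Fold enrichment (vertical axis, log scale) of the CTCF peak within 2 kb of each clustered protocadherin start at E17.5, in chromosome order; each point is 1 of 3 wild type lists (dots) or 1 of 3 humanized lists (triangles), and a list with no peak has no point. Pcdhac1 lies above 31 in wild type, Pcdhgb6, Pcdhgb7 and Pcdhga11 lie between 13.6 and 19.4 in wild type, and most other genes lie below 10 in both genotypes.

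The CTCF fold varied widely between promoters. Pcdhac1 was far above the rest, with 50.2, 36.2 and 31.2 in wild type (39.2 ± 9.88, SD, n = 3) and 43.2 ± 4.31 in humanized lists. It was followed by Pcdhgb6 (17.4 ± 2.27), Pcdhgb7 (16.8 ± 2.39) and Pcdhga11 (16.4 ± 2.54), which are neighbours near the end of the gamma A and B genes and whose spreads overlap. Pcdhgc3 had 11.2 ± 2.06. Among the Pcdha genes Pcdha6 was highest (9.80 ± 1.42), and among the Pcdhb genes Pcdhb17 (7.02 ± 2.66), whose range takes in most of the Pcdhb genes with a peak. The lowest of the 34 was Pcdhgc4, at 3.92 ± 1.29. Among the C-types, Pcdhgc4 had the largest rise of RNA and Pcdhac1 the lowest level per kb (0.624 CPM per kb over the 16 samples). Pcdhgc5 rose without a CTCF peak, and Pcdhgc3 had the highest level per kb. Whether CTCF fold and RNA go together was not tested. The median over the 34 was 6.82, against 10.6 over all gene starts with a peak in every list. In the humanized lists 30 genes had CTCF in every list (background 33.8%), and the lists were shorter, with 54857 to 59845 peaks against 61582 to 78661 in wild type.

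Away from the gene starts, strong CTCF peaks lay between the alpha and beta clusters and downstream of the gamma cluster. Within 100 kb of the 3 clusters, 47 CTCF regions had a peak in all 3 wild type lists. The 35 within 2 kb of a start had a median fold of 6.93. A pair lay between the alpha and beta clusters, 29841 and 30791 bp past the end of the alpha genes, with 41.0 ± 4.62 and 32.6 ± 2.15, and 1 between the beta and gamma clusters had 9.34. The 2 inside the gamma cluster but away from a start had 15.4 and 10.3. The 7 downstream of the gamma cluster had a median of 34.4, from 22.8 to 50.2. For comparison, the 49508 CTCF regions found in all 3 wild type lists outside chromosome 13 had a median of 10.7, with 37.0 at the 90th percentile. The core of the CTCF motif, read on both strands with up to 1 mismatch within 100 bp of the summit, matched 40.3% of these regions. It matched 6 of the 35 at gene starts, 5 on the plus strand alone and 1 on both, and 6 of the 12 others, all on the minus strand alone. Of the 49508 regions, 9302 matched on the plus strand alone, 9436 on the minus strand alone and 1237 on both. The strand of these few matches was not tested. The core matched 5 of the 58 promoters (250 bp before to 50 bp after the start), beside 14.2% of all protein-coding promoters. No match says only that these letters are not in the window.

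The humanized enhancer lies on chromosome 13, and the genotypes were set side by side for the clustered protocadherins at both stages. No member was called at either stage, of 44 tested at E11.5 and 54 at E17.5 (smallest adjusted p 0.58 and 0.81 with edgeR, background 0.0% of all genes in each), and DESeq2 called 0 members too. At E11.5 the unadjusted p was under 0.05 for 4 members, all lower in humanized samples, with 0 higher (background 2.87% lower, 3.06% higher): Pcdha7, Pcdhb19, Pcdhb20 and Pcdhb21. The count depends on single samples. It was 1 without E11.5 replicate 1 of either genotype, 8 without E11.5 wild type replicate 2, and 2 with the replicate block. Pcdha7 had 1.08, 0.954, 1.01 and 0.607 CPM in wild type and 0.34, 0.717, 0.258 and 0.164 CPM in humanized samples, a log2 difference of -1.30 ± 0.42 (adjusted p = 0.58) with overlapping groups. The differences of Pcdhb19 and Pcdhb21 were -0.90 ± 0.34 and -1.21 ± 0.46, and of the 44 genes 8 had a positive difference, with a median of -0.17. No share of all genes is given for the sign, so this is a description.

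At E17.5, 0 members had an unadjusted p under 0.05 (background 1.1% in either direction). The smallest was that of Pcdhgc4, at -0.41 ± 0.27 by edgeR (adjusted p = 0.81), which was -0.06 without replicate 1. Pcdhb21 was at 0.45 ± 0.31 and Pcdha6 at 0.32 ± 0.23. The median over 54 members was -0.08 with 20 positive, and 0.05 with 36 positive without replicate 1. No member passed the interaction test of the stage difference between genotypes (54 tested, 0 called, smallest adjusted p 0.46, background 0.0%), which does not show that the rises were alike. By unadjusted p, 6 members had a larger rise in humanized samples and 0 a smaller one (background 2.24% and 5.71%): Pcdha7, Pcdhb11, Pcdhb15, Pcdhb19, Pcdhb20 and Pcdhb21, of which Pcdhb11 and Pcdhb15 are named after their values were seen, and without replicate 1 there were 5. Leaving out 1 sample gave 2 to 10. Pcdha7, Pcdhb19, Pcdhb20 and Pcdhb21 are also the genes that were lower at E11.5. The interaction uses the same E11.5 samples, so the 2 results are not independent. Peak presence cannot pass a test between genotypes (smallest p 0.10 with 3 against 3 lists). H3K4me3 was in every humanized list at 18 and 38 starts at E11.5 and E17.5 (background 61.9% and 61.7%), H3K27ac at 3 and 12 (47.2% and 53.0%) and H3K27me3 at 23 and 20 (22.6% and 20.2%).

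Of the other protocadherins, which stand outside the clusters, all 12 were tested, and 9 rose and 1 fell in wild type (median 2.93, against 29.0% higher and 26.7% lower over all genes) and 9 rose and 2 fell in humanized samples (median 3.49, against 38.2% and 39.5%). Pcdh11x rose by 5.53 ± 0.50 and Pcdh18 fell by 1.24 ± 0.21 on the log2 scale in wild type. Of 11 factors known to act on the clusters, 3 rose and 4 fell in wild type (median -0.12), and 6 rose and 3 fell in humanized samples (median 0.45). The wild type counts of the factors are near those shares of all genes. Ctcf fell by 0.79 ± 0.16 and by 0.51 ± 0.12 in the 2 genotypes, and Dnmt3b, a DNA methyltransferase known to act on alternative promoters of the clusters, fell by 2.7 ± 0.19 and 2.66 ± 0.21. The cohesin subunits Smc3 (0.90 ± 0.26) and Stag2 (1.24 ± 0.37) and the loader Nipbl (1.0 ± 0.28) rose in wild type, and Rad21 fell by 0.69 ± 0.18. Setdb1, a histone methyltransferase known to act at the clusters, fell by 0.53 ± 0.16. Of 9 cytoplasmic partners, which carry the signal inside the cell, 6 rose and 2 fell in both genotypes (medians 0.88 and 0.98), with Cyfip2, a subunit of the WAVE complex, up by 1.29 ± 0.21 and the kinase Ptk2 down by 0.83 ± 0.20 in wild type.

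Markers of several cell types moved with stage, beside 29.0% of all genes called higher and 26.7% called lower in wild type. In bulk tissue, fewer cells of a type and less RNA per cell cannot be told apart. In wild type, 5 of 6 neuron markers rose and 0 fell (summed level 1583 to 2004 CPM at E11.5 and 5322 to 5964 CPM at E17.5), and 6 of 6 markers of neural progenitors fell (3763 to 4007 CPM and then 513 to 801 CPM). All 4 astrocyte markers rose (53.3 to 58.4 CPM and then 283 to 353 CPM), as did 3 of 4 of the oligodendrocyte lineage and 2 of 3 of the choroid plexus. Of 3 markers each, 1 rose and 2 fell for the meninges, 1 rose and 1 fell for blood, and 1 rose and 0 fell for the endothelium. Diencephalon markers summed to 1364 to 1986 CPM at E11.5 and 1504 to 1803 CPM at E17.5 in wild type, with 2 of 10 up and 4 down, near the shares over all genes. Telencephalon markers summed to 10.6 to 15.3 CPM and then 57.5 to 90.5 CPM, with 3 of 5 up and 1 down, and those of midbrain and hindbrain to 2.5 to 14.9 CPM and then 3.8 to 11.7 CPM, with 0 of 3 tested called. Every marker had a count in at least 1 of the 16 samples. The part of these shifts in the stage differences of the clustered protocadherins was not tested.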

How the data were processed

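RNA and chromatin of the diencephalon of wild type and hs754-humanized embryos were measured at E11.5 and E17.5, and 52 of 76 samples were analysed (24 inputs were not analysed here). The authors deposited raw RNA counts per gene, without strand and by strand, made with STAR 2.7.9a on mm39 and GENCODE release 31. Gene names, positions and countable exon lengths came from release 39, in which 56236 of 56923 gene IDs matched (98.8%). A few countable lengths, and so levels per kb, may differ from those of release 31. Lines that name no gene, 48.1% to 58.4% of reads, were left out. Most of these were unmapped reads (36.3% to 44.9% of reads). In the strand columns, 96.0% to 96.5% of the assigned reads fell on 1 strand. ChIP-seq reads were mapped by the authors with Bowtie2 2.4.2, those of humanized samples to a genome holding the human sequence, and after removal of duplicate and multi-mapping reads MACS2 2.2.7.1 called peaks in each replicate. The deposited lists give each peak's fold enrichment over local background (a ratio), its -log10 p-value and -log10 q-value, and a whole-number score. H3K27me3 lists are of the broad type, and how they were called is not given in the sources used here. ChIP depth is unknown from peak lists, so peak values carry no interval.

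After filterByExpr and TMM normalization, the counts were tested by quasi-likelihood F-test in R 4.3.3 (edgeR 4.0.16 with limma 3.58.1), with Benjamini-Hochberg adjustment over all genes tested and 0.05 as the threshold. Marks between stages were tested per gene start with Fisher's exact test, two-sided. Of 20937 protein-coding gene starts without chromosome 13, those with a peak in at least 1 list and not in all lists were tested. These were 761 for H3K4me3, 3752 for H3K27ac and 3908 for H3K27me3, and the backgrounds of the stage tests are shares of them. The software was Python 3.11.15, scipy 1.17.1, numpy 2.4.6, pandas 2.3.3 and matplotlib 3.10.9. Alternatives were DESeq2 1.42.0, its size factors, library size alone, no filter, the strand column, all 16 samples in 1 fit, a replicate block, a 1 kb window, a -log10 q of at least 5, the peak centre in the window, equal list lengths, and leaving out each replicate. At E17.5, deviations of samples of the same replicate number were positively correlated between genotypes (0.57, 0.64, 0.11 and 0.27 for replicates 1 to 4). The genotype values given are from the fit without a replicate block. With the block as an alternative, the count of calls stayed at 0. The fits were tested on simulated data.

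The named genes were set by rule: the C-types; in each other class the largest and smallest stage differences and the highest and lowest levels per kb; the 3 smallest p-values per genotype comparison; H3K27me3 at 1 stage alone; and the highest and lowest CTCF. Members, gene lists and rules were chosen with earlier results of these data known. Replicates are pools of embryos of a litter, so p-values cover the spread between pools. No sequence of these loci is shown.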

Additional observations from a re-analysis of the deposited data

Results flagged for a closer look

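Of 182 groups of 4 samples examined, 11 had a sample whose gap to the others was beyond the 95% limit of Dixon's test, and chance gives about 1 in 20. Of these, 4 were wild type E17.5 replicate 1: the sum of the Pcdhgc genes (191 CPM), Pcdhgc3 (66.6 CPM), Pcdhgc4 (115 CPM) and Pcdhgb2 (21.0 CPM), each above the other 3 samples. The report gives the stage and genotype results without this sample.

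In humanized E11.5 replicate 2, Pcdhb17 (4.57 CPM), Pcdhb8 (2.28 CPM) and Pcdha1 (0.224 CPM) were above the other samples of the group. In wild type E11.5, Pcdhga12 was high in replicate 1 (8.86 CPM), Pcdha1 was seen in replicate 3 alone (0.101 CPM) and Pcdhac1 was low in replicate 4 (0.364 CPM). Pcdhb1 was seen in humanized E17.5 replicate 2 alone (0.0606 CPM, a single read).

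The strand column, which the main comparisons did not use, holds a signal for Pcdhga10 (mean 20.4 CPM in wild type at E17.5) and Pcdha11 (7.39 CPM), which the counts without strand list at or near 0.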

How the results depend on the processing

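Across all alternatives the wild type stage comparison called 44 to 50 members and the humanized one 47 to 51, none of them lower, and the genotype comparisons and the interaction called 0. Members called when 1 replicate was left out numbered 44 to 47 in wild type and 47 to 49 in humanized samples. With the replicate block, 45 and 49 members were called by stage, and 0 by genotype at either stage and by the interaction. No comparison other than that of genotype at E17.5 had all correlations between samples of the same replicate number above 0.1.

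Differences near 0 changed sign. In wild type, Pcdhgb4 was -0.055 with library size alone, and Pcdhgb8 was 0.032 with DESeq2, 0.048 with its size factors and 0.0025 with all 16 samples. In humanized samples, Pcdhgb4 was -0.095 with library size alone, -0.061 with no filter and -0.0046 by strand, Pcdhgb8 was -0.075 by strand, and Pcdhgc3 0.0041 by strand. Leaving out 1 replicate gave -0.053 to 0.58 for Pcdhga7, -0.19 to 0.20 for Pcdhgb4, -0.27 to 0.13 for Pcdhgb8 and -0.077 to 0.56 for Pcdhgc3 in wild type, and -0.11 to 0.14 for Pcdhgb4 in humanized samples. Pcdhgb6 in wild type was not called without replicate 2, 3 or 4 of E11.5, and in humanized samples the calls of Pcdhga7 and Pcdhgb8 were each lost without any of 5 of the 8 samples.

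With a -log10 q of at least 5, wild type starts with H3K27ac at E11.5 numbered 1, and those with H3K27me3 9 at E11.5 and 4 at E17.5. With equal list lengths, 4 starts were called for H3K27ac by stage. Leaving out 1 list gave 0 to 5 for H3K27me3 by stage, where fewer lists raise the smallest p that the test can give.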
